A study of Mus musculus with 6 samples.

Results

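Nr4a1, Egr1, Btg2, Klf2, Klf6, Arc and Bdnf are genes that cells switch on within minutes to hours of stimulation and that do not encode parts of the Fos and Jun factor AP-1. Their RNA was measured in the adrenal gland of mice with and without PACAP, the neuropeptide encoded by Adcyap1 that the splanchnic nerve releases onto chromaffin cells. A clone, a cDNA spotted on the array, was counted as belonging to such a gene where the annotation of the series' probes, with current mouse symbols, gave that gene. This held for 12 of 36013 clones and 7 of 11837 named genes: 4 clones of Klf6, 2 each of Egr1 and Btg2, and 1 each of Nr4a1, Klf2, Arc and Bdnf. On each of 6 arrays, wild-type adrenal RNA (129XC57BL6 PACAP +/+ F2) carried the red dye Cy5 and knockout adrenal RNA (129XC57BL6 PACAP -/- F2) the green dye Cy3. The dyes were never exchanged, so a dye bias of a clone and an effect of genotype cannot be told apart. Age, sex and treatment of the mice are not given in the sources used here, and the labels number the arrays as repeats without saying whether the RNAs came from separate animals. The p-values given here therefore concern the spread between arrays, part of which may be technical. In whole glands, fewer cells of a type and less RNA per cell cannot be told apart.

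PACAP acts on chromaffin cells through a receptor that raises cAMP and calcium and activates the ERK kinases. These signals reach CREB and serum response factor, which bind the promoters of genes of this kind and turn them on without new protein synthesis. Nr4a1 and Egr1 encode transcription factors of the nuclear receptor and zinc finger families, and Klf2 and Klf6 are zinc finger factors of the Krüppel type. Btg2 restrains cell division and recruits the deadenylases that shorten mRNA tails, Arc encodes a synaptic protein that acts in receptor endocytosis, and Bdnf encodes a neurotrophin. In the adrenal gland, Nr4a1 is known for its induction by ACTH and by nerve input and for its action on steroidogenic genes.

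Promoter letters are shown first because cAMP can act on genes of this kind through a known motif. The RefSeq sequences used here (GRCm38.p6) gave the 250 bases before the start for 5 of the 7 genes. They held 7 listed starts for Bdnf and 1 for each of Nr4a1, Btg2, Klf2 and Klf6. No window of Egr1 or Arc was used. The selection left out windows on 1 chromosome, which need not be the reason for both genes. Why each had no window was not looked into, and the absence does not show that RefSeq lacks their promoters. In the 4 sequences below, written 5′ to 3′ on the strand of the gene, capitals mark the core of the cAMP response element, TGACG on either strand (CGTCA when it lies on the other strand). Nr4a1 and Btg2 are shown for their many or full elements, Bdnf for the start of the 7 with a match, and Klf6 as a window without a match.
Nr4a1, chr15:101266596-101266845, plus strand: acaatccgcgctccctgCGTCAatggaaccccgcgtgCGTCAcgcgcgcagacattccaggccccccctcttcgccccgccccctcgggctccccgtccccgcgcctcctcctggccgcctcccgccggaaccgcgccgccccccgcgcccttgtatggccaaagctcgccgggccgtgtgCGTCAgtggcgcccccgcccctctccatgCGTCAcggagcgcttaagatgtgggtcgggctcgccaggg
Btg2, chr1:134079156-134079405, minus strand: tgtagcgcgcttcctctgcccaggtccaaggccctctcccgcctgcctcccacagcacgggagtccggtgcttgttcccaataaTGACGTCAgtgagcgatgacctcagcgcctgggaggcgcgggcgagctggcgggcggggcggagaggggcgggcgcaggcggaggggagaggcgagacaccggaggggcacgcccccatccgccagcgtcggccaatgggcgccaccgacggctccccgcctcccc
Bdnf, chr2:109692186-109692435, plus strand: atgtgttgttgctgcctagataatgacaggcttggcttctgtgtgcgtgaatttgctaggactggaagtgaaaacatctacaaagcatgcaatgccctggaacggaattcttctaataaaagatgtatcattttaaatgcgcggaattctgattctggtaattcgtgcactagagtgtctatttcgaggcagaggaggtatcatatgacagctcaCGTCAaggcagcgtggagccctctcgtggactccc
Klf6, chr13:5861239-5861488, plus strand: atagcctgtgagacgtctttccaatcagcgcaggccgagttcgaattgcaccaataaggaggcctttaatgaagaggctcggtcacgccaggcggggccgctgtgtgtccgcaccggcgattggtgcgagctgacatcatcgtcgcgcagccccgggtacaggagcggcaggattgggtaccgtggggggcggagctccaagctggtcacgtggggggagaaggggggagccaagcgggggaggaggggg

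The Nr4a1 window held 4 cores, each inside the longer word TGCGTCA. The Btg2 window held the full palindrome TGACGTCA at positions -166 to -159 relative to the start, which contains the core on each strand. Klf2 (chr8:72318812-72319061, plus strand) had 1 core at -241 to -237, and the Bdnf window above had 1 at -35 to -31. Searched on both strands in 32851 windows of the same length, the core occurred in 17.8%, TGCGTCA in 1.75% and TGACGTCA in 1.55%. GCGGGGGCG, the word bound by EGR proteins, occurred in 2.57% of windows and was found in those of Nr4a1 and Klf2. The CArG box of serum response factor, present in 1.47%, was in none of the 11 windows of these 5 genes. Egr1 and Arc were not looked at, so this says nothing of them. These matches are letters only and do not show that a factor was bound.

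All ratios below are log2 of knockout over wild type. Each array was normalized by global loess, a curve fitted through all its spots. Values after print-tip loess, which fits a curve for each print block (the area printed by 1 pin), stand beside them. Of the 36013 clones, 28708 had a quality score above 0.3 on at least 4 arrays and were tested against 0 with limma, and 30.4% of them had an adjusted p under 0.05, which is called here a pass. The share was 11.4% after print-tip loess. The mean ratio of a print block ranged from -0.57 to 0.56, and 46.9% of the variance of the mean ratios lay between blocks. The median red signal was 1.14 to 4.79 times its background across arrays, lowest on arrays 4 and 2, against 5.39 to 7.07 times for green. The deleted gene could not be used to check the genotypes: the 1 Adcyap1 clone met the quality score on 2 of 6 arrays. Its red signal, with background already subtracted, was smaller than the local background on 4.

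All 12 clones of the 7 genes were tested, 10 of them with values on 6 arrays and 2 Klf6 clones with 5. With global loess, 5 of the 12 clones passed, all 5 higher in the knockout, against 30.4% of all clones passing in either direction and 16.2% passing higher and 14.2% lower. With print-tip loess, 7 of 12 passed, 6 higher and 1 lower, against 11.4%, of which 6.74% higher and 4.62% lower. By the brightest clone of each gene, 3 of 7 genes passed with global loess (31.0% of 10400 named genes) and 6 of 7 with print-tip loess (11.1%). The 4 clones that passed with both, in the same direction, were those of Nr4a1, Btg2 (block 43), Klf6 (block 43) and Bdnf, against 7.03% of all clones. The median over the 7 genes was 0.25 with global and 0.45 with print-tip loess, beside 0.02 and 0.00 over all clones. Without arrays 2 and 4, which had the weakest red signal, 1 of 12 clones passed with global loess (7.06% of all clones) and 0 with print-tip loess (0.252%), where 9 of the 12 had an unadjusted limma p under 0.05. With print-tip loess each of the 7 passes also ended when array 2, 3, 4 or 6 was left out, and 1, 1, 19 and 1 of all clones then passed, with 7 to 8 of the 12 clones at an unadjusted p under 0.05.

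**Figure D1:**
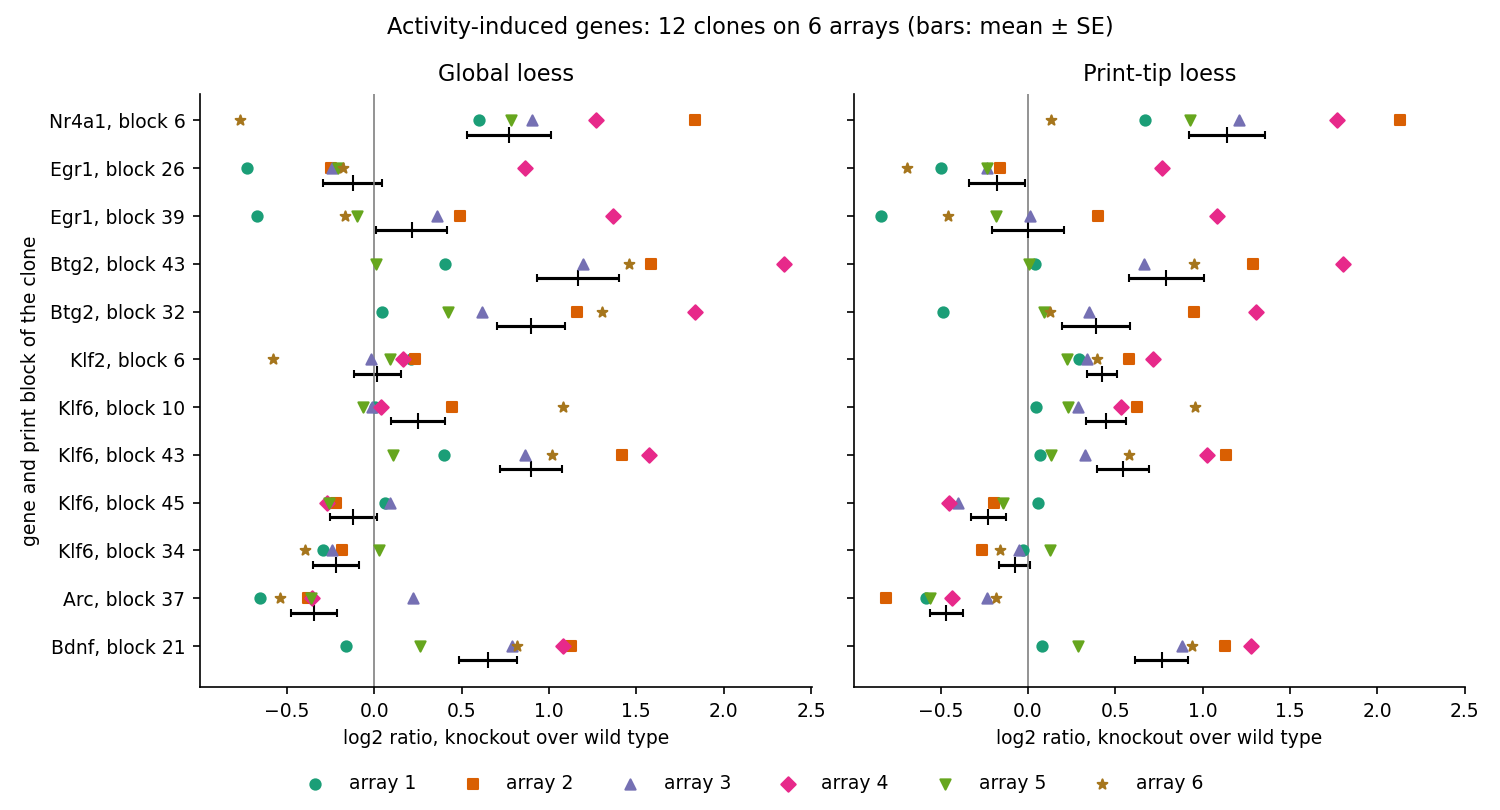
Log2 ratio of knockout over wild type (x axis) for the 12 clones (y axis, with their print block) on each of 6 arrays, after global loess (left) and print-tip loess (right). Black marks give the mean and limma's standard error. The means of Nr4a1, Btg2, Klf6 (block 43) and Bdnf lie right of 0 in both panels and the mean of Arc left of 0. Single arrays of some of these clones lie on the other side, and array 4 is often the highest.

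Nr4a1, also called Nur77, is an orphan nuclear receptor that binds DNA without a known hormone. Its wild-type signals on arrays 1 to 6 were 1270.2, 179, 421, 265, 436 and 538, and its knockout signals 2342, 1742, 1880.0, 2017, 1713 and 1174. The knockout signal was the higher on all 6 arrays before normalization, while the wild-type signal varied more between arrays. The log2 ratios were 0.60, 1.84, 0.91, 1.27, 0.78 and -0.77 with global loess, a mean of 0.77 ± 0.24 (SE, n = 6; limma adjusted p = 0.0267). With print-tip loess they were 0.67, 2.13, 1.21, 1.77, 0.93 and 0.13, a mean of 1.14 ± 0.22 (limma adjusted p = 0.0261). Arrays 2 and 4 were the highest and array 6 the lowest either way, and array 6 changed from below to above 0. On arrays 2, 4 and 6 the wild-type signal was only 1.61, 1.49 and 1.90 times its background. The clone lies in block 6, whose mean ratio with global loess was -0.37. The pass with global loess ended without array 2, 3, 4 or 5, with an adjusted p up to 0.0935, and without arrays 2 and 4 together.

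The array carried a further pair of spots for this gene under the title Nur-77. They had no gene in the probe annotation, so the rule left them out, and they were singled out after the files were seen. Their mean was 1.33 ± 0.27 (SE, n = 6; limma adjusted p = 0.00381) with global loess and 1.18 ± 0.26 (adjusted p = 0.031) with print-tip loess. By spot, the print-tip ratios on arrays 1 to 6 were 0.68, 2.38, 1.76, 2.30, 1.60 and 0.06 in block 42, and 0.53, 1.79, 1.17, 1.66, 0.64 and -0.44 in block 46. They ran through the arrays much as the annotated clone did, high on arrays 2 and 4 and near or below 0 on array 6. The block 42 spot had a green background of 987.4 on array 6, against 54.3 to 98.2 on the others. Its knockout signal there was 2.86 times that background. The root mean square difference between the clone and these spots was 0.67 with global loess and 0.21 with print-tip loess. Leaving out arrays 2 and 4 gave these spots a mean of 0.83 with global loess (adjusted p = 0.0477) and 0.75 with print-tip loess (adjusted p = 0.141).

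**Figure D2:**
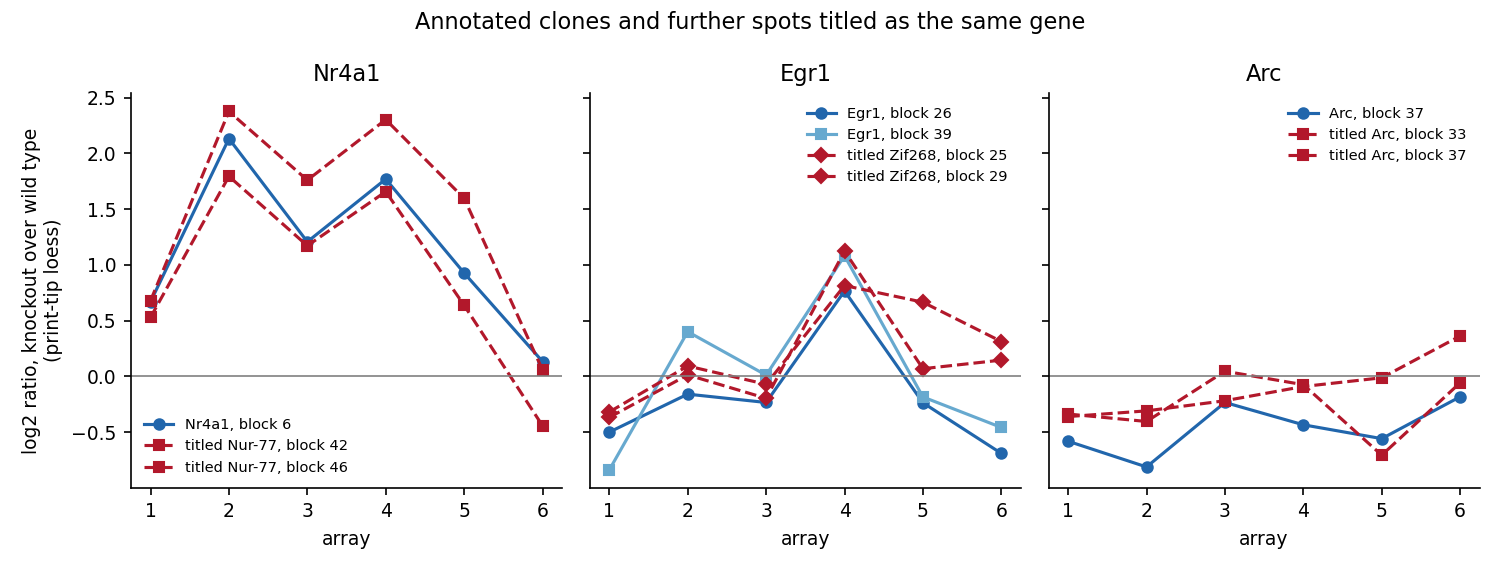
Print-tip loess log2 ratios (y axis) by array (x axis) for the annotated clones of Nr4a1, Egr1 and Arc (solid blue lines) and for spots that carry the gene's name only as a title (dashed red lines). The Nr4a1 lines lie above 0 on arrays 1 to 5, the Egr1 lines cross 0, and the Arc clone lies below 0 on 6 of 6 arrays.

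Egr1, also called Zif268, is a zinc finger factor that many stimuli induce. The ratios of its brighter clone (block 26) were -0.73, -0.25, -0.24, 0.865, -0.21 and -0.18 with global loess. Array 4 alone was above 0, and the wild-type signal there, 130.4, was the lowest of the 6. The mean was -0.12 ± 0.17 (SE, n = 6; limma adjusted p = 0.607), with a 95% interval from -0.49 to 0.24. The other clone (block 39) had a mean of 0.21 ± 0.20 (limma adjusted p = 0.447), with 3 arrays above 0 and 3 below. On arrays 2 and 4, both above 0, its wild-type signal was 0.647 and 0.595 times its background. With signal above background required in both channels, its mean was -0.16 (n = 4). With print-tip loess the means of the 2 clones were -0.18 ± 0.16 and 0.00 ± 0.21 (limma adjusted p = 0.465 and 0.995). Spots titled Zif268 in blocks 25 and 29, outside the rule, had a mean of 0.26 ± 0.17 with global loess (limma adjusted p = 0.254) and 0.19 ± 0.15 with print-tip loess (adjusted p = 0.392). A clone titled for the same gene in block 5, also outside the rule, had -0.39 ± 0.15 and 0.13 ± 0.13 (limma adjusted p = 0.0559 and 0.524). None of these 4 passed with either normalization, and their signs differed.

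Btg2 had the largest global loess ratio of the 12 clones. For the brighter clone (block 43) the wild-type signals were 988, 189.9, 352, 110.2, 561 and 193 and the knockout signals 1622, 1553, 1934, 1906, 1288 and 2064. The lowest knockout signal was above the highest wild-type signal, in values that still hold the difference in brightness between the dyes. The ratios were 0.41, 1.58, 1.19, 2.34, 0.01 and 1.46 with global loess, a mean of 1.17 ± 0.23 (SE, n = 6; limma adjusted p = 0.00357), and 0.04, 1.29, 0.67, 1.81, 0.00 and 0.95 with print-tip loess, a mean of 0.79 ± 0.21 (limma adjusted p = 0.0435). Arrays 4, 6 and 2 were high and array 5 was near 0. On arrays 4, 6 and 2 the wild-type signal was only 1.1, 2.6 and 1.8 times its background. The mean of block 43 was 0.27. This was the 1 clone of the 12 that still passed without arrays 2 and 4 (0.77, limma adjusted p = 0.0425, global loess).

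The dimmer Btg2 clone (block 32, block mean 0.49) had ratios of 0.05, 1.16, 0.62, 1.84, 0.42 and 1.31, a mean of 0.90 ± 0.19 (SE, n = 6; limma adjusted p = 0.00507). After print-tip loess the ratios were -0.49, 0.95, 0.35, 1.31, 0.09 and 0.13, and the mean of 0.39 ± 0.20 did not pass (adjusted p = 0.196). Both Btg2 clones were highest on array 4, where the wild-type signal of the dimmer one was 0.75 times its background. Their root mean square difference was 0.43 with global and 0.49 with print-tip loess, so the block fit did not bring them closer.

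Klf6 encodes a zinc finger factor that binds core promoters and is known as a growth suppressor. Its brightest clone (block 10) gave wild-type signals of 3262, 1137, 1539, 849.7, 1638 and 718.5 and knockout signals of 3814, 3384, 3247, 2436, 3348.5 and 4663.5. The global loess ratios were 0.01, 0.44, -0.01, 0.04, -0.07 and 1.08, so that array 6 and, less so, array 2 carried the mean of 0.25 ± 0.16 (SE, n = 6; limma adjusted p = 0.239). With print-tip loess all 6 ratios were above 0, at 0.05, 0.62, 0.29, 0.54, 0.23 and 0.96, with a mean of 0.45 ± 0.12 (limma adjusted p = 0.0398). Block 10 had a mean of -0.21.

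The clone in block 43 had global loess ratios of 0.40, 1.42, 0.86, 1.57, 0.11 and 1.02. Its mean was 0.90 ± 0.18 (SE, n = 6; limma adjusted p = 0.00338), and 0.54 ± 0.15 with print-tip loess (adjusted p = 0.0432). On arrays 2, 4 and 6, where its global loess ratios were highest, its wild-type signal was 1.76, 2.13 and 1.87 times its background. These 2 clones differed by a root mean square of 0.84 with global loess and 0.33 with print-tip loess. The remaining 2 clones, in blocks 45 and 34, had 5 arrays each and means of -0.12 and -0.22 with global loess and -0.23 and -0.08 with print-tip loess, none passing. The clone in block 34 was dim, with a wild-type signal at most 2.32 times its background. The scanner files title the clones in blocks 10 and 43 as core promoter element binding protein, an older name of Klf6, and those in blocks 45 and 34 as immediate early response, erythropoietin 1, in another UniGene cluster. The pair with the first title had positive means and the pair with the other title negative means under both normalizations, as a description of clones seen after the fact.

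Klf2 is a factor of endothelial cells and lymphocytes. Its clone shares block 6 with Nr4a1 and gave global loess ratios of 0.21, 0.24, -0.02, 0.17, 0.09 and -0.58, with array 6 apart from the others. The mean was 0.02 ± 0.13 (SE, n = 6; limma adjusted p = 0.933). With print-tip loess all 6 were above 0, at 0.29, 0.58, 0.34, 0.72, 0.23 and 0.40, and the mean of 0.43 ± 0.09 passed (adjusted p = 0.0282). The call for Klf2 thus depended on whether its block was fitted separately, and it was the gene with the smallest fold among those that passed higher there, 1.34 times.

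Arc was the 1 gene of the 7 lower in the knockout among those that passed. Its wild-type signals were 513, 156, 197, 145, 239.7 and 542.5 and its knockout signals 434, 364, 597, 421, 447 and 1361. Before normalization the knockout signal was the higher on arrays 2 to 6, but by less than the loess curve at that brightness, so most ratios were below 0: -0.66, -0.38, 0.22, -0.36, -0.36 and -0.54 with global loess, a mean of -0.35 ± 0.13 (SE, n = 6; limma adjusted p = 0.0629). With print-tip loess they were -0.58, -0.81, -0.23, -0.43, -0.56 and -0.18, lower on 6 of 6 arrays as for 10.8% of all clones with 6 values, with a mean of -0.47 ± 0.10 (limma adjusted p = 0.0285). Spots titled Arc in blocks 33 and 37, outside the rule, did not pass. Their joint mean was -0.03 ± 0.13 with global loess and -0.18 ± 0.09 with print-tip loess (limma adjusted p = 0.876 and 0.194). By spot, global loess gave -0.15 in block 33 and 0.09 in block 37, and print-tip loess -0.26 and -0.10. A clone in block 33 with the gene's full title passed the quality score on 0 arrays. The titled spots were below 0 on 2 of 6 arrays with global loess and on 5 of 6 with print-tip loess.

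Bdnf, a ligand of the receptor TrkB, had wild-type signals of 2764.5, 315, 934, 484, 1395 and 1045 and knockout signals of 2917, 1762, 3532, 2951.5, 3589 and 5448.5. The ratios were -0.16, 1.12, 0.79, 1.08, 0.26 and 0.82 with global loess, a mean of 0.65 ± 0.17 (SE, n = 6; limma adjusted p = 0.0107), and 0.08, 1.13, 0.88, 1.28, 0.28 and 0.94 with print-tip loess, a mean of 0.77 ± 0.15 (limma adjusted p = 0.0276). Arrays 2 and 4 were the highest and array 1 the lowest in both. The pass ended when each array was only centred on its median, with no loess (0.44, limma adjusted p = 0.0581). The knockout signal was 27.4 to 59.3 times its local background. The wild-type signal was 3.18 and 4.42 times its background on arrays 2 and 4, where the ratios were highest, against 10.2 to 35.2 times on the others. Which of the 7 starts the clone's transcripts came from cannot be read from the array.

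**Figure D3:**
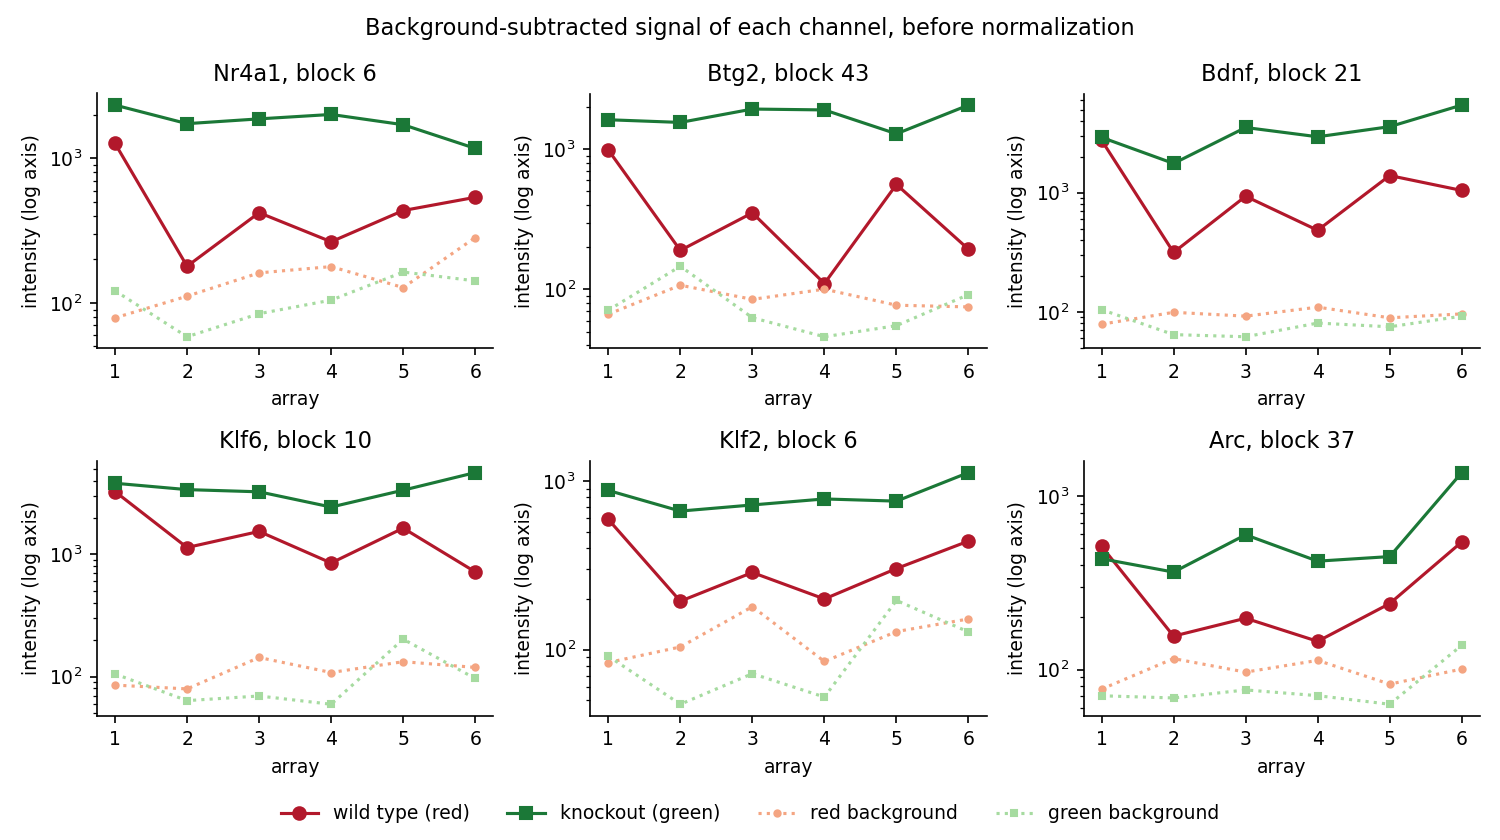
Background-subtracted intensity (y axis, log scale) of the wild-type (red) and knockout (green) channels by array (x axis) for 6 clones, with the local backgrounds dotted. The wild-type line falls on arrays 2 and 4 for all 6 clones, while the knockout line moves less; these signals are not normalized, and the difference in brightness between the dyes over all spots is still in them.

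The ratios of the 12 clones varied with the array. Their median was 1.08 on array 4 and 0.47 on array 2 with global loess, against 0.03, 0.29, 0.02 and -0.17 on arrays 1, 3, 5 and 6. With print-tip loess it was 1.02 on array 4 and 0.60 on array 2, against 0.05 to 0.31 on the others. Of the 12 clones, 5 had their highest global loess value on array 4 and 3 on array 2, the arrays with the dimmest wild-type channel. The part of the weak red channel in these ratios was not tested. Of the 10 clones with 6 values, 3 were above 0 on 6 of 6 arrays with global loess (16.5% of all such clones) and 6 with print-tip loess (11.8%).

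**Figure D4:**
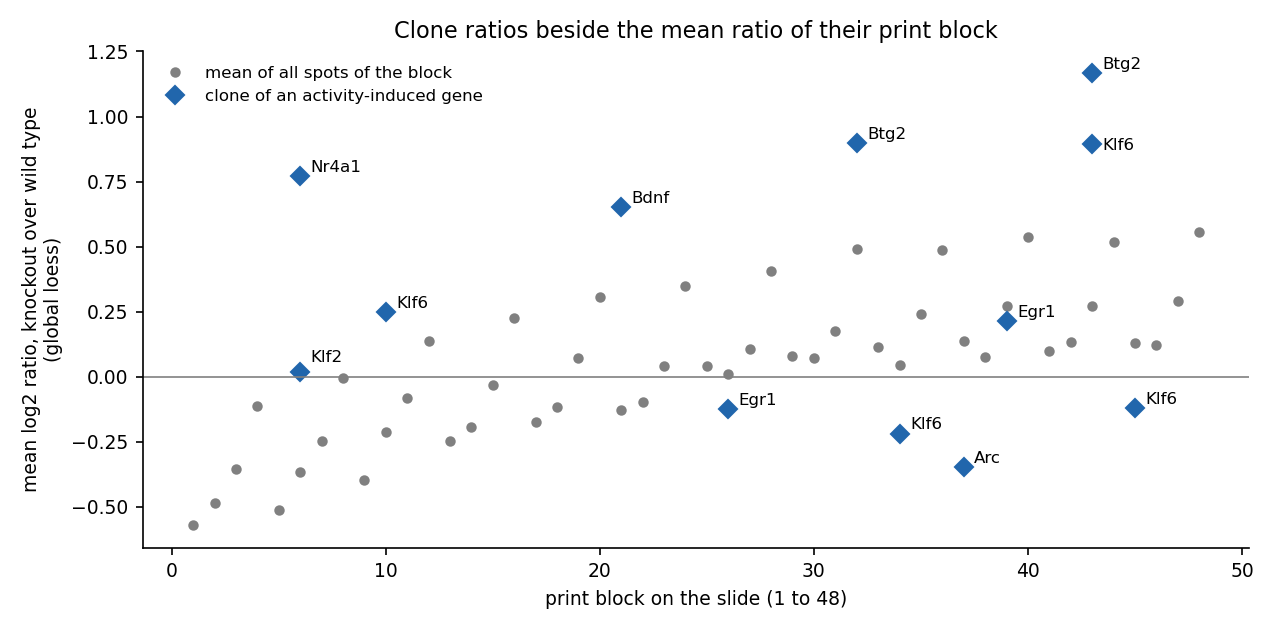
Mean global loess ratio of all spots in each of the 48 print blocks (grey, y axis) by block number (x axis), with the means of the 12 clones in blue. Block means climb from -0.57 to 0.56. The clones of Nr4a1, Btg2, Bdnf, Klf2 and Klf6 (blocks 10 and 43) lie above their blocks. Those of Arc, Egr1 and Klf6 (blocks 45 and 34) lie below theirs.

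Relatives and partners of these proteins were taken from a list written with earlier results of these data known. Of 31 tested genes, 3 were higher and 5 lower with global loess, and 3 higher and 1 lower with print-tip loess, with medians of 0.10 and 0.05. Passing with both were Sh3gl1, an endophilin that binds Arc, at 0.84 ± 0.21 (SE, n = 6; limma adjusted p = 0.00959), and Dlg4, the synaptic scaffold PSD-95, at 0.39 ± 0.14 (limma adjusted p = 0.0433). Print-tip loess gave 0.70 and 0.34 for them (limma adjusted p = 0.0398 and 0.0492). The 5 lower with global loess were Klf3, Klf7, Ngfr and the listed Arc partners Sh3gl3 and Wasf1, and none of them passed with print-tip loess. Sh3gl3, a relative of Sh3gl1, had -0.60 ± 0.14 (SE, n = 6; limma adjusted p = 0.00653) with global loess, below 0 on 6 of 6 arrays. Print-tip loess gave 0.03 for it (limma adjusted p = 0.755). Nr4a3, a relative of Nr4a1, had 0.31 ± 0.18 (limma adjusted p = 0.199). The TrkB gene Ntrk2 passed with print-tip loess alone, at 0.37 ± 0.07 (limma adjusted p = 0.0276), against -0.07 with global loess.

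Among 43 other activity-induced genes, 7 were higher and 5 lower with global loess, and 5 higher and 1 lower with print-tip loess. Those that passed with both were Jun, a part of AP-1, at 0.76 ± 0.15 (SE, n = 6; limma adjusted p = 0.0036), Crem, a cAMP-responsive repressor and activator, at 0.65 ± 0.14 (limma adjusted p = 0.00505), Sik1, a kinase that restrains CREB coactivators, at 0.93 ± 0.13 (limma adjusted p = 0.000762), and the cAMP phosphodiesterase Pde4b at -0.52 ± 0.12 (limma adjusted p = 0.00557). Their print-tip ratios were 0.70, 0.60, 0.38 and -0.38. Jun, Crem and Sik1 were above 0 and Pde4b below 0 on 6 of 6 arrays with global loess. Fos did not pass, at -0.18 ± 0.12 (limma adjusted p = 0.26). Of 19 tested genes of the pathway upstream (CREB, its coactivators, serum response factor and the kinases), 3 were higher and 1 lower with global loess, and 1 higher and 1 lower with print-tip loess. Prkar1a, a regulatory subunit of protein kinase A, passed with both, at 0.72 ± 0.20 (limma adjusted p = 0.0158) and 0.58 ± 0.16 (adjusted p = 0.0477). Over the 3 lists, 21.1% to 27.9% of genes passed with global loess, beside 31.0% of all named genes, and 10.5% to 14.0% with print-tip loess, beside 11.1%. Some clones counted in the lists carry the title of another gene in the scanner files. Among them were those of Cnot1, Klf13 and Ier3, the last being 1 of the 7 higher with global loess.

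Some markers of the gland's cell types passed as well. Of 6 tested markers of the adrenal cortex, 4 were higher and 0 lower with global loess, and 2 higher with print-tip loess, with the steroid enzyme gene Hsd3b1 at 1.60 ± 0.30 (SE, n = 5; limma adjusted p = 0.00288) and 1.40 ± 0.31 (adjusted p = 0.032). Nr5a1, the nuclear receptor that drives steroid enzyme genes, had 0.64 ± 0.16 (SE, n = 6) and 0.62 ± 0.14 (limma adjusted p = 0.00941 and 0.0315). The cortical markers that did not pass with global loess were Mc2r, at 0.12, and Fdx1, at -0.34 (limma adjusted p = 0.558 and 0.0597). Fdx1 was below 0 on 6 of 6 arrays there, and print-tip loess gave 0.38 for Mc2r and -0.01 for Fdx1. Of 5 chromaffin markers, 3 were higher and 1 lower with global loess, and 1 and 1 with print-tip loess; Chgb, a granule protein gene, had 1.01 ± 0.19 and 0.70 ± 0.12 (limma adjusted p = 0.00252 and 0.0242), while Slc18a1, a vesicular amine transporter gene, went the other way, at -0.41 ± 0.14 and -0.46 ± 0.10 (SE, n = 5; limma adjusted p = 0.0415 and 0.0314). All 6 cortical and all 5 chromaffin markers had background-subtracted signals above their local background in both channels on at least 4 arrays, as did 5 of 5 macrophage, 3 of 4 endothelial, 1 of 2 lymphocyte and 0 of 1 fat markers, so this criterion does not tell the tissue apart. Summed over the list, cortical markers ranged from 4549 to 43786 in the wild-type channel and from 47571 to 79235 in the knockout channel, and chromaffin markers from 1662 to 13385 and from 13447 to 37101, before normalization. Of other cell types, 1 of 4 endothelial and 2 of 5 macrophage markers were higher and 1 of 2 lymphocyte markers lower with global loess, and 0, 1 and 0 passed with print-tip loess. The macrophage marker that passed with both was the complement gene C1qb, at 0.94 ± 0.22 and 0.88 ± 0.22 (SE, n = 6; limma adjusted p = 0.00777 and 0.0367). Their summed signals ranged from 658.5 to 2275, 1546 to 6499 and 219.8 to 489 in the wild-type channel, and from 1775 to 3969, 7371 to 9341 and 744 to 1200.4 in the knockout channel. The 1 fat marker tested did not pass, at 0.30 with global loess, and no kidney marker of the list was on the array. The part of cell-type composition in the ratios of the 7 genes was not tested.

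Clones with the most similar ratios were found for the 6 genes whose brightest clone passed with either normalization, all but Egr1, among 14674 named clones with 6 arrays, by the smallest root mean square difference over the arrays with global loess. Nearest to Nr4a1 were Rnf113a2 (0.30) and Canx (0.33), and nearest to Btg2 were Tmem106c and Actb (both 0.25). For Klf2 they were Xbp1 and Pwwp3a (both 0.07), and for Klf6 Uqcrc2 (0.07) and 1110038B12Rik (0.10). Nearest to Arc were 2810029C07Rik (0.12) and A030007L17Rik (0.16), and to Bdnf Wdr33 (0.12) and Prrc2c (0.13). None of these 12 was another activity-induced gene of the lists. Only 43 such genes were tested, beside 14674 candidate clones, so nothing can be read from this. The distance to the nearest clone was largest for Nr4a1 and Btg2, whose ratios spread most between arrays.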

How the data were processed

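Total RNA of wild-type and knockout adrenal glands was hybridised pairwise to 6 arrays. Per the series design text, the authors scanned with a GenePix 4000A, analysed images with IPLab, subtracted background, normalized ratios and used those with a combined quality score above 0.3. The deposited intensity columns already had local background subtracted. The deposited calibrated ratio (red over green divided by a constant per array) was not tested. The deposited value table holds log2 ratios of red over green, not centred. It served to name clones and as an alternative. To match it, local background was subtracted once more from the intensities, differences below 1 were set to 1, and ratios were divided by the array's constant. Rows and spots were matched on their values within 0.002 (35793 of 35873 rows), and 22368 of 36013 clones had 1 gene, named through RefSeq GRCm38.p6.

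From the intensities, log2 green over red was normalized by global loess, 1048 control or empty spots and spots not above a quality score of 0.3 were dropped, spots of a clone were averaged, and 28708 clones with at least 4 of 6 arrays were tested against 0 with limma 3.58.1 (R 4.3.3), Benjamini-Hochberg threshold 0.05. Standard errors are limma's moderated ones. Print-tip loess and the other alternatives are described at the end. The script was tested on simulated data. The genes and lists were chosen with earlier results of these data known. Every clone of the 7 genes is described; from lists, genes passing with both normalizations in the same direction are named (at most 5 a list), and any other gene was named after its values were seen. A gene is represented by its clone of highest mean signal. Precision is limited by the number of arrays.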

Additional observations from a re-analysis of the deposited data

Results flagged for a closer look

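In 16 tests of an array standing apart from the other arrays, 3 clones had such an array with global loess; chance gives about 1 in 20. The Egr1 clone in block 26 had 0.865 on array 4, where the other arrays ranged from -0.73 to -0.18. The Klf2 clone in block 6 had -0.58 on array 6, against -0.02 to 0.24 on the others. The mean of block 6 on that array was -0.87, the lowest of its 6 values. The Arc clone in block 37 had 0.22 on array 3, against -0.66 to -0.36 on the others.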

How the results depend on the processing

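Against 8731 clones, 5 clones of the 7 genes and 3 genes that passed with global loess, print-tip loess gave 3263 clones and 6 genes, and the deposited value table gave 90 clones, 0 clones of the 7 genes (2 at an unadjusted limma p under 0.05) and 0 genes. Without arrays 2 and 4 the counts were 2076, 1 and 1 with global loess and 74, 0 and 0 with print-tip loess. Leaving out each array gave 4477 to 8657 clones with global loess and, with print-tip loess, 1 to 3759 clones (19 without array 4 and 2723 without array 5), 0 to 7 clones of the 7 genes and 0 to 6 genes. Changed signs under the deposited value table were Klf2 -0.0805, Klf6 (block 10) -0.65, Klf6 (block 34) 4.25, Bdnf -0.12, the Zif268 spots -0.16 and the titled Arc spots 0.34. Klf6 (block 10) turned to -0.0153 with median centring, Egr1 (block 39) to -0.16 with a filter on dim spots, and Egr1 to 0.0454 as a mean over its clones. Without arrays 2 and 4, Klf2 turned to -0.0744 and Egr1 (block 39) to -0.14 and, with print-tip loess, -0.37. Leaving out each array gave -0.0261 to 0.14 for Klf2, -0.0829 to 0.0514 for the titled Arc spots, and -0.0165 to 0.39 (print-tip loess, -0.21 to 0.17, and -0.0778 without array 2) for Egr1 (block 39). Nr4a1 no longer passed without the quality filter (0.77, limma adjusted p = 0.0762). No value that turned sign had passed with global loess except Bdnf. The deposited value table matches intensities with background subtracted once more, as described above, so it is not an equal alternative. The cause of the turned signs was not tested. Over all alternatives, 240 values of single clones kept their side, 48 no longer passed, 10 newly passed and 20 turned sign. The ratio within each array already pairs the genotypes. Weak red signal, 6 arrays and the fixed dyes limit every value.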
